A study of Mus musculus with 18 samples.

Results

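A partially reprogrammed OCK clone was set against late OCK reprogramming cultures, that is, 9 of the 18 mouse arrays of the study. All cells of the comparison carried OCK, the 3 factors Oct4, c-Myc and Klf4, without introduced Sox2. The 3 arrays of the clone carried the wild-type Tcf3 genotype and differed in the siRNA: 1 array with a control siRNA and 1 array each with Tcf3 siRNA A and Tcf3 siRNA B, 2 independent siRNAs, all collected at day 2 after the siRNA. The 6 late cultures were OCK cultures of Tcf3 wild-type (wt) or knockout (ko) genotype on days 19, 22 and 26 after the start of reprogramming, 1 array per genotype and day, with no siRNA. The other 9 arrays, used only to place the results, were 5 iPSC clones (2 OCK ko, 1 OSK wt and 2 OSK ko, where OSK is Oct4, Sox2 and Klf4) and 4 early OCK cultures, wt and ko on days 11 and 15. All 3 arrays of the partial clone came from 1 clone, and no label states whether any of the arrays are from cultures of their own. A p-value here therefore reflects how much the 9 arrays scatter, which may be technical. That scatter also holds the differences between siRNAs, genotypes and days within each group. Day of sampling, siRNA treatment and the state of the cells are tied together in this design and cannot be told apart.

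Reprogramming of fibroblasts passes through loss of the mesenchymal program, gain of epithelial junctions and, last, activation of the endogenous pluripotency network around Nanog, Sox2 and Oct4. Partial iPSC are lines that grow as colonies and keep dividing while this network is still largely silent, and they depend on the introduced factors. Tcf3, now called Tcf7l1, binds DNA and beta-catenin and is known in embryonic stem cells as a repressor of pluripotency genes.

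Members of the comparison were genes that lay on the same side in all 18 pairs of a partial-clone array and a late-culture array. Levels are log2 RMA signal, and a value at 5.64, the floor of the table, stands for any lower level. A difference is the mean of the partial clone minus the mean of the late cultures, on the log2 scale, with its standard error (SE). Of 17903 genes, 4328 were at the floor on all 9 arrays and 13575 were tested. Of these, 5719 genes (42.1%) differed the same way in all pairs, 2969 of them higher (21.9%) and 2750 lower (20.3%) in the partial clone. limma called 6069 genes (44.7%) at an adjusted p under 0.05, 3159 higher (23.3%) and 2910 lower (21.4%). Both conditions were met by 5276 genes (38.9%), 2669 higher (19.7%) and 2607 lower (19.2%), and only these are called higher or lower in what follows. For a called gene, lack of overlap between the groups is set by the rule and is no further result. The median difference over all genes tested was 0.033. Quantile normalization of the table raised the share of higher genes among the limma calls to 64.5%, against 52.1% on the deposited scale.

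The lower genes moved further than the higher ones. Higher genes had a median difference of 0.51, and 514 of them differed by at least 1, 124 by at least 2 and 13 by at least 4. Lower genes had a median of -1.01, and 1315 differed by at least 1, 494 by at least 2 and 78 by at least 4. Among the lower genes, 298 were at the floor on all 3 partial-clone arrays, while 54 of the higher genes were at the floor on all 6 late cultures. At the edge of the rule among genes above the floor on all 9 arrays, Slc5a10 (difference 0.22) and Mgmt (-0.29) were separated by gaps of 2.44e-06 and 3.08e-05, and Rexo2 (0.27) missed the rule by 5.08e-05. With the control siRNA array as the only array of the clone, 1024 genes were higher and 1310 lower.

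Mbp and Aspa, known from myelinating glia, and the developmental regulators Pax7, Tal1 and Isl1 were among the genes with the largest positive differences. Mbp, which encodes myelin basic protein, had 12.69, 11.76 and 11.38 in the partial clone with control siRNA, Tcf3 siRNA A and Tcf3 siRNA B, against a lowest, median and highest value of 5.84, 6.72 and 7.03 in the late cultures. The difference was 5.43 (SE 0.33, limma adjusted p = 1.2e-06), a 43-fold higher level, and the other 3 probe sets of Mbp differed by 1.51, 2.25 and 3.60. Aspa, the aspartoacylase that breaks down N-acetylaspartate, had 12.66, 12.18 and 11.97 in the clone, against 6.80, 7.33 and 8.34 in the cultures. For both genes the lowest clone array stood more than 3 log2 units above the highest culture. Pax7, a transcription factor of muscle and neural crest precursors, had 10.42, 10.32 and 10.38 in the clone, against 5.64, 5.66 and 5.95 in the cultures, a difference of 4.67 (SE 0.11, limma adjusted p = 4.78e-09). Tal1, a regulator of blood formation, averaged 10.13 in the clone, against 5.64, 5.64 and 6.64 in the cultures, a difference of 4.32 (SE 0.22). Isl1, a factor of motor neurons and cardiac progenitors, had 9.48, 10.22 and 9.90 in the clone, against 5.64, 5.64 and 5.81 in the cultures. These 3 regulators were between 5.64 and 6.64 in the cultures and between 9.48 and 10.42 on every array of the clone. They were also at or near the floor elsewhere: Pax7 and Tal1 were at 5.64 on all 5 iPSC clone arrays and all 4 early cultures, and Isl1 was between 5.72 and 6.46 in iPSC clones and at 5.64 in early cultures.

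The remaining genes among the 12 largest positive differences were of mixed kinds. Tac2, which encodes a tachykinin neuropeptide, differed by 4.78, and Plxnc1, a semaphorin receptor, by 4.45. Eno4, an enolase-like gene of sperm, was at the floor on all 6 late cultures and had 9.68, 10.50 and 10.20 in the clone, which makes it at least 22.4-fold higher. Krt13, a keratin of stratified mucosal epithelium, differed by 4.23, Shisa6, which binds AMPA receptors, by 4.21, Igfbpl1 by 4.21 and Mctp2 by 4.18. Of the 12 genes, 7 have more than 1 probe set, and Plxnc1 alone among them had probe sets with differences near 0 (3.68, 0.58, 0.03 and 0.00).

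**Figure D1:**
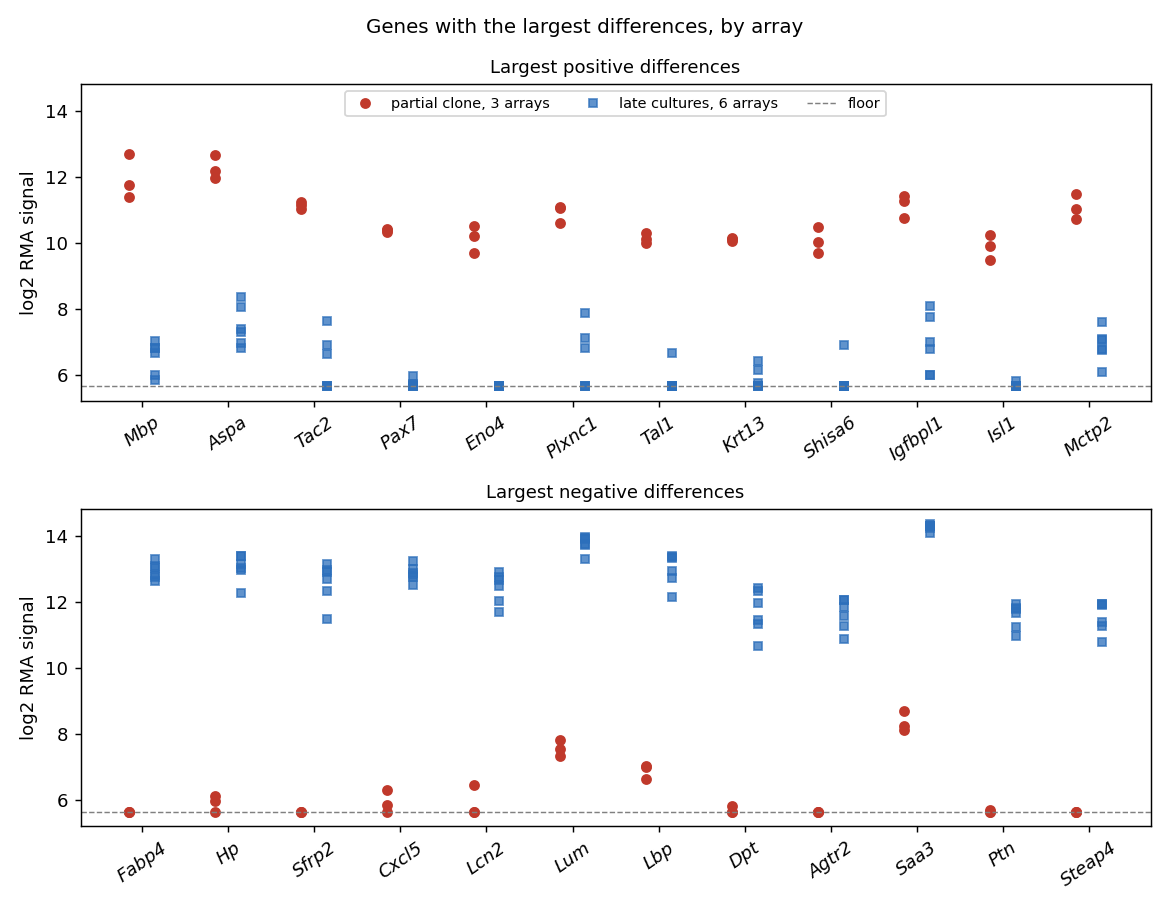
Log2 RMA signal of the 12 genes with the largest positive (top) and the 12 with the largest negative differences (bottom); each red circle is 1 of 3 partial-clone arrays, each blue square 1 of 6 late cultures, and the dashed line is the floor at 5.64. By the rule that chose them, no gene shown has a partial-clone array inside the range of the late cultures. Of the lower genes, 4 (Fabp4, Sfrp2, Agtr2 and Steap4) have all 3 partial-clone arrays at the floor.

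The 12 largest negative differences held secreted proteins and the fat-cell gene Fabp4, and some of these genes kept a signal well above the floor in the clone. Fabp4, the fatty acid carrier of adipocytes and macrophages, was at 5.64 on all 3 clone arrays, against 12.63, 12.93 and 13.30 as the lowest, median and highest late culture, at least 157-fold lower (difference -7.29, SE 0.14, limma adjusted p = 1.59e-09). Sfrp2, a secreted Wnt inhibitor, was at 5.64 on all 3 clone arrays, against 11.50, 12.81 and 13.14 in the cultures, at least 123-fold lower. Neither gene had a clone array above the floor. Hp, haptoglobin, had 6.13, 5.96 and 5.64 in the clone, against 12.28, 13.10 and 13.40 in the cultures. Saa3, an acute-phase protein of activated stromal cells, had 8.69, 8.11 and 8.23 in the clone, against 14.10, 14.31 and 14.38 in the cultures, and was the only gene of the 12 largest negative differences besides Lum and Lbp with all 3 clone arrays above the floor. Lcn2 (-6.51), Lbp (-6.10) and the neutrophil chemokine Cxcl5 (-6.94) belong with Hp and Saa3 to the genes known to rise in acute-phase and innate responses. The other 5 genes of this set were the matrix genes Lum (-6.20) and Dpt (-6.00), the angiotensin receptor Agtr2 (at least 62.7-fold lower), the growth factor Ptn (-5.91) and the metalloreductase Steap4 (at least 59.7-fold lower). These values are those of the brightest probe sets. Other probe sets differed by -4.75, -0.52 and -0.29 for Fabp4, -3.29 for Lbp, -4.58 and 0.01 for Ptn and -0.68 for Steap4. All 12 were also low in iPSC clones relative to early cultures: the highest iPSC value of Fabp4 was 5.64 against a lowest early value of 11.88, and for Sfrp2, the least separated of them, 9.33 against 12.82.

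Fibroblast matrix and surface genes were lower almost throughout. Of 23 genes tested, 21 were lower and 0 higher (median -2.82, against 0.033 over all genes). Over all genes tested, 19.7% were higher and 19.2% lower, the shares to set beside the counts of every list that follows. Lum, a collagen-binding proteoglycan, had 7.82, 7.32 and 7.56 in the partial clone, against 13.30, 13.84 and 13.97 in the late cultures. Postn, the matrix protein periostin, had 7.77, 7.23 and 7.40 in the clone, against 12.72, 13.16 and 13.40 in the cultures (difference -5.66, SE 0.16, limma adjusted p = 1.62e-08). Pdgfra, the growth factor receptor that marks fibroblasts, had 6.84, 6.23 and 6.63 in the clone, against 11.20, 12.07 and 12.26 in the cultures. The groups lay more than 4 log2 units apart for each of these 3 genes. Col1a1, the main chain of type I collagen, differed by -3.58, while the 2 members that were not called, the cadherin Cdh2 and the intermediate filament Vim, differed by -0.02 and 0.09. The summed linear signal of the list was between 39920 and 50675 in the clone and between 128053 and 198071 in the cultures, and Fap alone of its members was at the floor on all 3 clone arrays. In bulk arrays, fewer cells of a type and less RNA per cell cannot be told apart, here and in all lists that follow.

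Transcription factors of mesenchyme showed the same direction, with 9 of 16 lower and 2 higher (median -1.09). Prrx1, which marks limb and stromal mesenchyme, had 7.71, 6.90 and 7.01 in the partial clone, against 9.74, 10.67 and 11.11 in the late cultures (difference -3.37, SE 0.27, limma adjusted p = 7.89e-06). Prrx2 differed by -2.87, Twist1 by -2.70, and Snai2 and Snai1, repressors of E-cadherin, by -1.89 and -1.30. Zeb1, another repressor of E-cadherin, was not called (0.04), whereas Zeb2 was lower (-2.64). The 2 higher factors were Meox2 (1.19) and Foxf1 (0.46). TGF-beta ligands, receptors and targets were lower for 6 of 15 and higher for 2 (median -0.66). Tgfbi, a matrix protein induced by TGF-beta, was at the floor on all clone arrays, against 8.41, 9.18 and 9.49 in the cultures, at least 10.7-fold lower. The receptors Tgfbr2 and Tgfbr1 differed by -1.61 and -1.30, and the higher members were the ligand Tgfb3 (0.92) and the latency protein Ltbp1 (1.07). Contractile genes had 2 higher and 1 lower of 10 (median -0.05).

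Epithelial junction genes, which are gained in reprogramming, were also lower in the clone: 20 of 27 were lower and 2 higher (median -1.04). Cldn7, a tight-junction claudin, had 5.97, 5.74 and 5.74 in the partial clone, against 8.61, 9.14 and 10.19 in the late cultures (difference -3.44, SE 0.28, limma adjusted p = 7.66e-06). Cldn4 differed by -3.05, and Esrp1, a splicing factor of epithelial cells, by -2.89. The 5 iPSC clones also lay above the partial clone for Cldn7 (8.81 to 9.78), Cldn4 (9.32 to 10.66) and Esrp1 (8.01 to 9.37). Epcam differed by -2.43, Krt8 by -2.36 and Krt18 by -1.68. E-cadherin itself (Cdh1) had a difference of 0.63 that was not called, and the 2 higher members were the protease inhibitor gene Spint1 (1.36) and occludin, Ocln (1.36). With the control siRNA array alone, 10 of the 27 were lower, and quantile normalization gave 16.

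**Figure D2:**
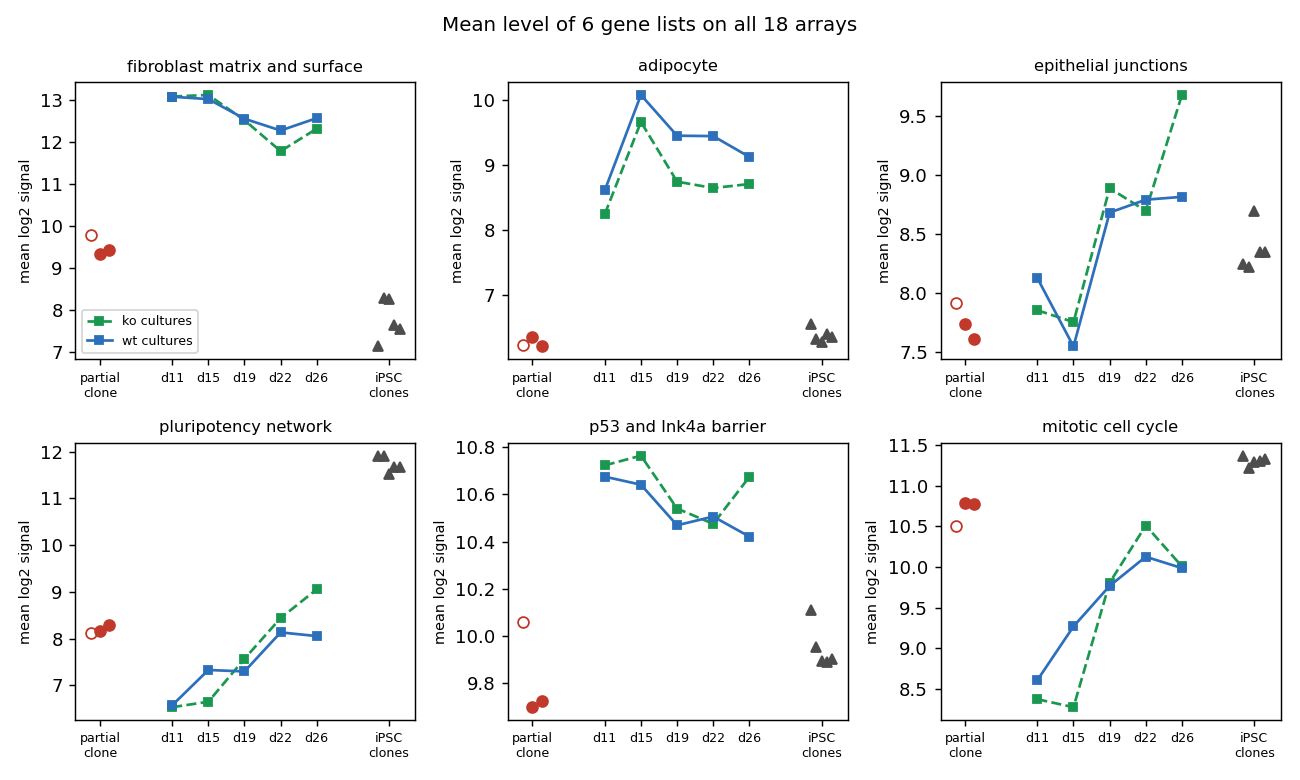
Mean log2 RMA signal of 6 gene lists on all 18 arrays; red circles are the partial clone (open, control siRNA; filled, Tcf3 siRNA A and B), squares with lines the ko (dashed) and wt (solid) OCK cultures by day, and triangles the 5 iPSC clones. Fibroblast and adipocyte genes are lower in the clone than in every culture, the mean of the epithelial list in the clone is below that of each late culture, and the pluripotency mean of the clone lies within the range of the late cultures.

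Lists of other cell types that such cultures can hold were counted in the same way. Adipocyte genes were lower for 8 of 10 (median -2.33). Their summed signal was between 955 and 1124 in the clone and between 14920 and 24710 in the cultures, with Adipoq, Cd36, Fabp4, Pparg and Cidec at the floor on all 3 clone arrays. Lpl, lipoprotein lipase, had 8.23, 8.70 and 8.39 in the clone, against 12.63, 13.21 and 13.44 in the cultures, and Adipoq, the hormone adiponectin, was at least 24.5-fold lower. Keratinocyte genes were lower for 7 of 15 (median -1.22), with sums between 2112 and 3248 in the clone and between 3392 and 12678 in the cultures. Sprr1a, a protein of the cornified envelope, had 5.77, 5.64 and 5.64 in the clone, against 9.63, 10.89 and 11.33 in the cultures. Krt17 and Krt6a, keratins of activated epidermis, differed by -3.75 and -3.45. For both lists the highest sum of the clone lay below the lowest sum of the cultures.

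Macrophage and blood genes were lower for 4 of 13 (median -0.15), among them Cd68 (-1.75), Lyz2 (-1.75) and Cd14 (-1.59), and 0 were higher. Their sums were between 1054 and 1185 in the clone and between 1414 and 2627 in the cultures. The defining markers Ptprc, Adgre1, C1qa, C1qb, C1qc, Tyrobp, Cd52 and Itgam were at the floor on all 3 clone arrays. Of these 8 markers, 4 were at the floor on all 6 late cultures too. Quantile normalization gave 2 lower genes in this list, and the control siRNA array alone gave 0. Neuronal genes were lower for 3 of 18 and higher for 2 (median -1.13), with sums between 10289 and 14658 in the clone and between 5482 and 22380 in the cultures. Gap43 and Nefm, a growth-cone protein and a neurofilament, were at the floor in the clone (at least 7.12-fold and 5.39-fold lower), and the adhesion molecule Ncam1 was higher (1.63), with 11.78, 11.19 and 11.22 in the clone, against 9.11, 9.54 and 10.88 in the cultures. The part of these cell types in the other differences was not tested.

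Endothelial genes went both ways, with 5 higher and 3 lower of 10 (median 0.27). Esam, an adhesion molecule of endothelial cells and blood stem cells, had 10.82, 11.03 and 10.98 in the partial clone, against 6.72, 7.53 and 8.05 in the late cultures (difference 3.47, SE 0.24, limma adjusted p = 2.93e-06). Pecam1 differed by 1.34, while the claudin Cldn5 (-1.71) and the VEGF receptor Flt1 (-1.62) were lower. The defining endothelial genes Cdh5, Tie1 and Emcn were at the floor on all 3 clone arrays, and 2 of them on all 6 late cultures too. The summed signal, in which bright genes such as Esam weigh most, was between 4227 and 4563 in the clone and between 2228 and 2656 in the cultures. The mean log2 signal of the list was between 7.22 and 7.36 in the clone and between 6.95 and 7.16 in the cultures.

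Among germ layer lists, single regulators stood out. The counts of these lists stand beside 19.7% higher and 19.2% lower over all genes tested. Gata6, the factor that sets up primitive endoderm, had 10.60, 10.20 and 10.08 in the clone, against 6.42, 7.11 and 8.20 in the cultures (difference 3.01, SE 0.39, limma adjusted p = 0.000174). The list as a whole had 2 higher and 6 lower of 13, and Gata4 (0.22), Sox17 (0.18) and Foxa2 (0.01) were not called. Mesp1, an early mesoderm factor, had 7.06, 7.82 and 7.64 in the clone, against 5.64, 5.66 and 5.84 in the cultures, and Nodal, a ligand of the TGF-beta family, differed by 1.57. Both were among 3 higher and 1 lower (Lefty1, a Nodal inhibitor, -0.77) of the 8 streak and mesoderm genes tested. The trophoblast regulators Gata3 (1.70) and Tfap2c (1.52) were higher and Krt7 was lower (-2.68), with 3 higher and 1 lower of 12. In the neural progenitor list, 1 of 14 was higher and 3 lower: Msi1 (-2.67), an RNA-binding protein of neural stem cells, and Zic1 (-2.56) were the largest. Of the other probe sets of Msi1, 1 differed by 0.37 and 1 was at the floor on all 9 arrays. The other probe set of Zic1 differed by -0.53. Sox1, a neural plate factor, had a difference of 1.16 (limma adjusted p = 0.0426), and the call was lost when any 1 of the 3 clone arrays, the ko day 19 array or the ko day 26 array was left out (adjusted p between 0.0595 and 0.107).

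Pluripotency genes did not move together. Of 27 tested, 5 were higher and 0 lower (median -0.03, which turned to 0.13 with quantile normalization and 0.02 with median centring). The 5 were Fgf4, Klf5, L1td1 and the introduced factors Pou5f1 and Klf4. The calls of Pou5f1 and Klf4 did not hold in all alternatives, and no direction is given for Klf4 below. Fgf4, a growth factor gene driven by Oct4 and Sox2, had 10.28, 10.33 and 10.09 in the partial clone, against 7.17, 8.31 and 9.04 in the late cultures (difference 2.00, SE 0.39, limma adjusted p = 0.00205). Klf5 had 10.59, 10.53 and 10.56 in the clone, against 7.49, 8.76 and 10.10 in the cultures. L1td1, an RNA-binding protein of embryonic stem cells, had 12.64, 12.67 and 12.61 in the clone, against 11.03, 11.43 and 11.86 in the cultures. L1td1 also lay above all 5 iPSC clones (11.89 to 12.52). Zfp42, a marker of naive pluripotency, Tcl1 and Prdm14 were at the floor on all 3 clone arrays. This did not set the clone apart from the late cultures. Zfp42 and Tcl1 differed by -0.30 and -0.05 and were not called. Prdm14 was at the floor on every late culture too and was not tested. Without Tcf3 siRNA A or without Tcf3 siRNA B, 3 of the 27 were higher, and with the control siRNA array alone 1 was.

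Nanog and Sox2 separated the days of the cultures more than the 2 groups. Nanog had 5.78, 6.76 and 7.29 in the clone, against 7.41 and 6.31 in the ko and wt cultures of day 19, 9.15 and 8.43 on day 22 and 9.79 and 9.23 on day 26. Sox2 had 8.35, 8.60 and 8.37 in the clone, against 6.71 and 5.64 in the ko and wt cultures of day 19, 9.66 and 9.79 on day 22 and 10.55 and 10.13 on day 26. The clone overlapped the day 19 cultures for Nanog, lay above them for Sox2, and lay below all 4 cultures of days 22 and 26 for both genes. Over the 6 cultures neither was called (Nanog -1.78, limma adjusted p = 0.0608; Sox2 -0.31, adjusted p = 0.832). Without the day 19 arrays, Nanog differed by -2.54 (adjusted p = 0.00129) and Sox2 by -1.59 (adjusted p = 0.000509), and 5 pluripotency genes were lower: Nanog, Sox2, Sall4 (-1.76), Tet1 (-1.62) and Fbxo15 (-0.97). The wt day 19 array was enough for Nanog, with an adjusted p of 0.00736 without it.

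**Figure D3:**
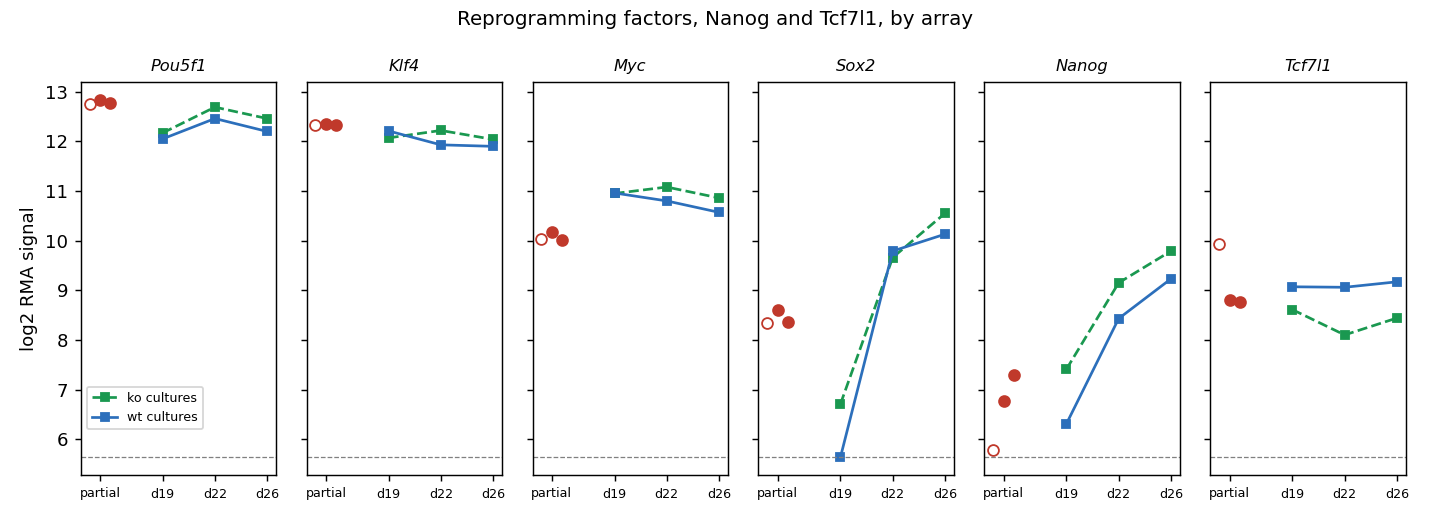
Log2 RMA signal of Pou5f1, Klf4, Myc, Sox2, Nanog and Tcf7l1 on the 9 arrays compared; red circles are the partial clone (open, control siRNA; filled, Tcf3 siRNA A and B), squares with lines the ko (dashed) and wt (solid) cultures by day, and the dashed horizontal line is the floor at 5.64. Nanog and Sox2 are higher on days 22 and 26 than on day 19 in both genotypes, and the partial clone lies below days 22 and 26.

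For the factors that were introduced, endogenous and introduced transcripts were not told apart by the probe sets here. Pou5f1, which encodes Oct4, had 12.76, 12.83 and 12.78 in the clone, against 12.05, 12.33 and 12.69 in the cultures (difference 0.45, limma adjusted p = 0.0205), and the call was lost when any 1 clone array was left out (adjusted p between 0.0503 and 0.0751). Myc was lower, with 10.04, 10.17 and 10.02 in the clone, against 10.57, 10.90 and 11.08 in the cultures (difference -0.79, limma adjusted p = 0.000285). Klf4 differed by 0.27 with its brighter probe set (limma adjusted p = 0.0368), a call that was lost in 15 of 27 alternatives, and its second probe set went the other way by -2.12 in all 18 pairs. No direction is given for Klf4. Tcf7l1 had 8.80 and 8.77 in the clone with Tcf3 siRNA A and B and 9.93 with control siRNA, against 8.61, 8.10 and 8.44 in the ko cultures and 9.07, 9.06 and 9.17 in the wt cultures of days 19, 22 and 26. The groups overlapped, and the difference of 0.42 was not called (limma adjusted p = 0.288). The sources used here do not say whether its probe set reads the deleted part.

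Of 22 Tcf/Lef and Wnt genes, 10 were lower and 3 higher (median -0.19). Besides Sfrp2, the largest differences were those of Lgr5, a receptor for R-spondins, and Sfrp1, a second secreted inhibitor. Lgr5 had 5.64, 5.94 and 5.99 in the partial clone, against 9.79, 11.20 and 11.52 in the late cultures (difference -5.13, SE 0.32, limma adjusted p = 1.63e-06). Its other probe set was at the floor on all 9 arrays. Sfrp1 had 9.43, 8.82 and 8.72 in the clone, against 12.37, 12.97 and 13.40 in the cultures, and its other 3 probe sets differed by between -5.03 and -3.80. The Frizzled receptors Fzd1 (-2.55), Fzd7 (-2.34) and Fzd2 (-1.15) and the coreceptors Lrp6 (-0.51) and Lrp5 (-0.44) were lower too. The higher members were Sp5 (1.58), a target of beta-catenin, Nkd1 (0.32) and Axin1 (0.32), while Axin2, another target of beta-catenin, was lower (-0.55). Ctnnb1, beta-catenin itself, was not called (0.06), nor was Znrf3 (0.01), an inhibitor of the pathway on the cell surface.

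Signalling lists for growth factors used by stem cells differed in direction. In the FGF and ERK feedback list, 7 of 15 were higher and 3 lower (median 0.30). Etv5, a target of ERK, had 11.67, 11.35 and 11.50 in the clone, against 9.47, 10.16 and 10.96 in the cultures (difference 1.34, limma adjusted p = 0.00451), and the ERK phosphatases Dusp4 (1.29) and Dusp6 (0.82) were higher. Spry1, an inhibitor of the pathway, was lower, with 7.51, 7.58 and 7.60 in the clone, against 9.08, 9.18 and 9.51 in the cultures, as were the immediate early gene Egr1 (-1.84) and the receptor Fgfr1 (-1.13). In the LIF and Stat3 list, 7 of 14 were lower and 1 higher (median -0.44). By their brightest probe sets, the receptor chains Il6st (-1.90), Il6ra (-1.56) and Lifr (-1.26) made up the largest differences, with Jak2 (-0.80), Lif (-0.64), Socs3 (-0.45) and Stat3 (-0.36) below them. Lifr had 8.50, 8.43 and 8.50 in the clone, against 9.17, 9.85 and 9.94 in the cultures. Other probe sets of the receptor chains disagreed: those of Lifr differed by -0.17 and 0.19, that of Il6ra by 0.05 and those of Il6st by -2.69 and 0.12.

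Interferon-induced genes were mostly not called, with 3 higher and 2 lower of 22 (median 0.14). Oasl1 and Oas2, of the oligoadenylate synthetase family, were higher by 2.50 and 2.09, and Ifit2 was lower (-1.89). Oasl1 had 9.44, 9.34 and 9.07 in the clone, against 6.36, 6.65 and 7.62 in the cultures. Without the wt day 19 array, 6 of the 22 were higher.

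Of 20 genes of the mitotic cell cycle, 8 were called higher and 0 lower. The difference was above 0 for all 20, with a median of 0.62. Mki67, the proliferation antigen Ki-67, had 12.21, 12.37 and 12.43 in the partial clone, against 10.87, 11.23 and 11.64 in the late cultures (difference 1.11, SE 0.17, limma adjusted p = 0.000424). Cdk1, the mitotic kinase, had 11.77, 11.99 and 12.09 in the clone, against 10.84, 10.90 and 11.39 in the cultures. Ccnb2, a B-type cyclin that binds it, had 10.79, 11.05 and 10.99 in the clone, against 9.68, 10.18 and 10.53 in the cultures. For these genes the highest culture was close to the clone. The mean of the list was 10.504 in the clone with control siRNA and 10.509 in the ko culture of day 22, and the count of higher genes was 18 without the ko day 22 array and 15 without the control siRNA array. With the control siRNA array alone it was 2.

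Promoters of the 3 leading cell cycle genes are shown because CCAAT boxes, the binding motif of the factor NF-Y, are known from promoters of this class. The windows run from 250 bases before to 50 after the gene start and come from RefSeq on GRCm38.p6. Each is printed 5′ to 3′ on the minus strand of the genome, on which all 3 genes lie: Mki67 at chr7:135716330-135716629, Cdk1 at chr10:69352863-69353162 and Ccnb2 at chr9:70421505-70421804. Capitals mark CCAAT, or ATTGG where it lies on the opposite strand.
Mki67: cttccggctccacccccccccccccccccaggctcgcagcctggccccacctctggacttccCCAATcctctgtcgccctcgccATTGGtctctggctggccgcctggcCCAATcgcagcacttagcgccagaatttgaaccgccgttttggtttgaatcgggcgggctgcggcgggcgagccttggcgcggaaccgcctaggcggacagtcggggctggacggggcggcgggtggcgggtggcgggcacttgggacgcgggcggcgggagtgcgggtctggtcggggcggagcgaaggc
Cdk1: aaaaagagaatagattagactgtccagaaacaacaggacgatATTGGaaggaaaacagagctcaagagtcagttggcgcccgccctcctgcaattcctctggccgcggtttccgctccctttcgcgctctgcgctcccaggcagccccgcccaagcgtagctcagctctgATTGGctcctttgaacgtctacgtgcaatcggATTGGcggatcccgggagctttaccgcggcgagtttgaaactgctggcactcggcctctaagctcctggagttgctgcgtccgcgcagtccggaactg
Ccnb2: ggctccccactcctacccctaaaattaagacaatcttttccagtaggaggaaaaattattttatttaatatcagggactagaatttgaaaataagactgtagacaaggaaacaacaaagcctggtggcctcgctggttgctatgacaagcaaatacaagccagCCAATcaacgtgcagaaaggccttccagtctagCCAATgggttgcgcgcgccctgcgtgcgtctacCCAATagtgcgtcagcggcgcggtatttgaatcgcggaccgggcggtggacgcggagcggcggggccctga
Each window holds 3 matches. In Ccnb2 all 3 read CCAAT, beginning 87, 54 and 21 bases before the gene start, and in Cdk1 all 3 read ATTGG, beginning 208, 80 and 48 bases before it. CCAAT on either strand was found for 7 of the 8 higher cell cycle genes (87.5%), against 42.7% of the 10886 tested genes with a promoter sequence. Its share varied widely in the other lists searched. It ran from 0% (0 of 4 higher Polycomb genes) to 100% (5 of 5 higher FGF and ERK feedback genes). A match is a description of the sequence and not a binding site.

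In the p53 and Ink4a list, of genes that restrain the cycle, 11 of 14 were lower and 0 higher (median -0.59). Cdkn2a, the locus of the cell cycle inhibitors Ink4a and Arf, had 9.55, 8.71 and 8.87 in the clone, against 10.65, 11.18 and 11.51 in the cultures (difference -2.13, SE 0.22, limma adjusted p = 4.1e-05). Its neighbour Cdkn2b had 8.99, 8.43 and 8.50 in the clone, against 9.55, 10.07 and 10.21 in the cultures. Pmaip1, a mediator of apoptosis, differed by -1.30. The iPSC clones lay below the partial clone for Cdkn2a (6.08 to 6.90) and Cdkn2b (7.45 to 8.35) but not for Pmaip1 (10.27 to 11.90). Cdkn1a, the p53 target p21, was lower by less (-0.38), and Mdm2 was not called (-0.34).

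For the lower fibroblast genes, the promoter of Postn is shown, 1 of 3 among the 9 lower members with a promoter sequence that hold a TATAAA box (33.3%, against 9.53% of the 10886 genes). The other 2 are Col3a1 and S100a4. In the other lists searched, the share with TATAAA ran from 0% (0 of 7 lower p53 and Ink4a genes) to 40% (2 of 5 lower Tcf/Lef and Wnt genes). The window is chr3:54360857-54361156 on the plus strand of GRCm38.p6 from RefSeq, and capitals mark TATAAA, which begins 26 bases before the gene start.
Postn: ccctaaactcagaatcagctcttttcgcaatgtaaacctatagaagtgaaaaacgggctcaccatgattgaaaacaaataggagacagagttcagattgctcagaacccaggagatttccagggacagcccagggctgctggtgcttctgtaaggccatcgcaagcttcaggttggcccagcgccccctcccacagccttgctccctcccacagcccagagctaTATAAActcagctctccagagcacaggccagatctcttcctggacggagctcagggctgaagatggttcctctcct
A second start of Postn in the same source, chr3:54359017-54359316, held none. The motif CCAAT was found for 2 of the 9 members (22.2%).

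Imprinted genes were lower for 11 of 17 and higher for 0 (median -1.25). Igf2, the fetal growth factor, had 9.34, 9.01 and 9.12 in the partial clone, against 12.39, 13.43 and 13.64 in the late cultures (difference -4.08, SE 0.24, limma adjusted p = 1.19e-06). The other probe set of Igf2 differed by -1.14 and did not separate the groups in all 18 pairs. Cdkn1c, an inhibitor of cyclin-dependent kinases, had 7.06, 6.93 and 6.51 in the clone, against 9.94, 10.77 and 11.16 in the cultures. Meg3, a noncoding RNA of the Dlk1-Dio3 region, had 9.58, 8.99 and 9.49 in the clone, against 11.46, 12.12 and 12.41 in the cultures, and all of its other 7 probe sets had negative differences (-3.16 to -0.48). Mirg (-1.61) and Rian (-1.48), noncoding RNAs of the same region, were lower as well, while Dlk1 was at the floor in the clone and not called (-0.03). For the 3 leading genes, the clone lay below all cultures by the rule itself.

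Metabolic genes split by pathway. Of 12 glycolysis genes, 7 were lower and 3 higher (median -0.41). Slc2a1, the glucose transporter Glut1, had 9.66, 9.42 and 9.36 in the clone, against 11.66, 12.11 and 12.82 in the cultures (difference -2.65, SE 0.22, limma adjusted p = 8.34e-06), and its other 2 probe sets differed by -2.87 and -2.68. Aldoc (-2.28) and Pfkl (-1.67) were lower. Pfkp, the platelet-type phosphofructokinase, was higher by 2.10 with its brightest probe set, while its other probe sets differed by -0.99 and 0.74, and the call was lost with the mean of its probe sets. Of 18 respiratory chain genes, 8 were higher and 1 lower, by small amounts (median 0.18), led by Cox8a (0.76), Sdhb (0.61) and Ndufv1 (0.41), and 5 were called higher when either Tcf3 siRNA array was left out. Sdhb had 12.49, 12.66 and 12.42 in the clone, against 11.77, 11.92 and 12.09 in the cultures. Sterol synthesis genes were lower for 7 of 14 (median -0.24), among them Lss (-1.24, with 0.12 for its other probe set), Dhcr7 (-1.06) and Insig1 (-0.76), and 0 of these 7 promoters held the sterol element TCACNCCAC, against 1.41% of all promoters searched. In the amino acid list Gldc, the glycine decarboxylase, was lower (-2.21) and the glutamine transporter Slc38a5 higher (1.47), among 2 lower and 1 higher of 13.

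Of 14 Polycomb genes, which keep developmental genes silent, 4 were higher and 0 lower (median 0.24). The counts of this paragraph stand beside 19.7% higher and 19.2% lower over all genes tested. Phc1, a subunit of Polycomb complex 1, had 11.98, 11.88 and 11.85 in the partial clone, against 9.76, 10.58 and 10.87 in the late cultures. Bmi1 differed by 0.58 and Phf19 by 0.43. Of 9 genes for DNA methylation and its removal, Uhrf1 (0.91), which recruits Dnmt1, and the oxidase Tet2 (0.84) were higher and 0 were lower. Tet1 differed by -1.02 and was not called over the 6 cultures. Histone deacetylases and sirtuins, a family counted after the values had been seen, went both ways, with 3 higher and 3 lower of 17 (median 0.13). Hdac9 (1.78), Hdac7 (0.86) and Hdac5 (0.44) were higher, and Hdac11 (-1.15), Sirt5 (-1.13) and Sirt2 (-0.21) lower.

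Hox genes, which keep the position of a cell along the body, went both ways, with 5 higher and 5 lower of 16 listed (median -0.28). Over all clusters, counted after the values had been seen, 6 were higher and 9 lower of 24 (median -0.39). None of the higher ones was a Hoxb or Hoxc gene. Hoxc8 had 5.85, 5.64 and 5.64 in the clone, against 8.48, 9.72 and 10.44 in the cultures (difference -3.92, SE 0.35, limma adjusted p = 1.45e-05), and was at 5.64 on all iPSC arrays. Hoxc4 (-2.23), outside the list, Hoxb2 (-1.49) and Hoxc6 (-1.37) were lower, and Hoxd13 (1.59), Hoxa9 (1.47) and Hoxa10 (1.41) higher. In the germ cell list 7 genes could be tested, and 2 were lower: Rhox5 (-3.21), an X-linked homeobox gene, and Piwil2 (-3.09), which acts in the silencing of transposons. Rhox5 had 8.53, 8.26 and 8.29 in the clone, against 10.70, 11.74 and 12.51 in the cultures, and Piwil2 had 6.41, 6.34 and 6.20 in the clone, against 8.88, 9.37 and 10.02 in the cultures. In the clone Piwil2 was also below every iPSC clone (6.80 to 8.10) and early culture (6.63 to 7.47). Among sex-linked genes, the Y-linked genes Kdm5d and Uty differed by -0.05 and -0.30 and were not called. The Y-linked gene Eif2s3y was lower by -0.65 (limma adjusted p = 0.0165), with an adjusted p of 0.0822 without the Tcf3 siRNA A array. All 3 Y-linked genes were at 5.64 on each of the 5 iPSC arrays, while no clone or culture array had less than 7.42, the value of Uty with Tcf3 siRNA A. Xist was between 5.64 and 6.90 on all 9 arrays and not called (-0.27), and Tsix was at the floor on all of them.

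**Figure D4:**
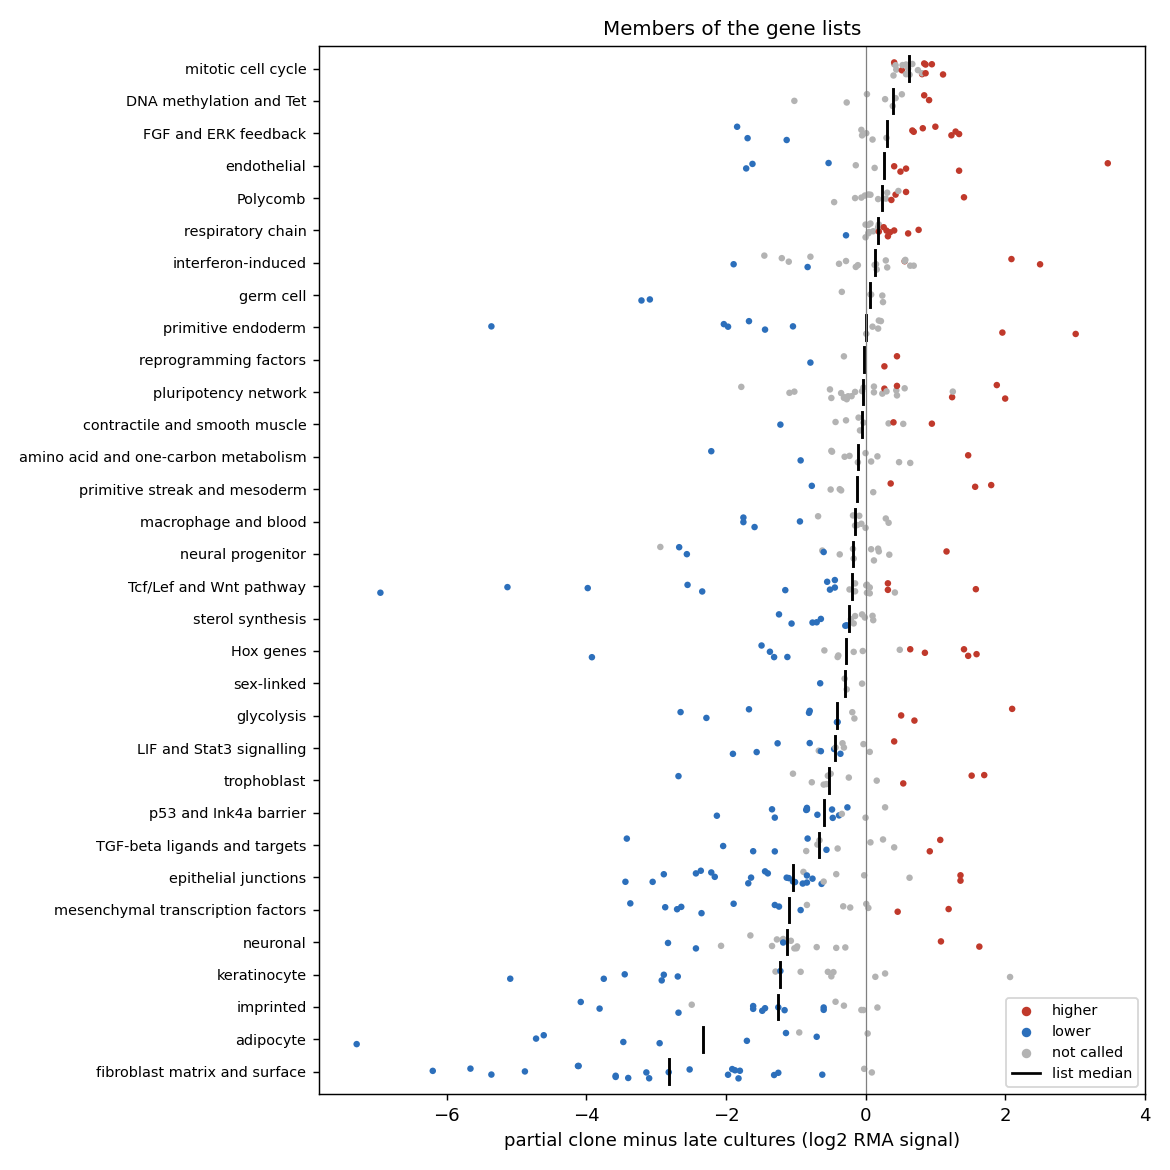
Differences (partial clone minus late cultures, log2 RMA signal) of the tested members of the 32 gene lists, ordered by the list median (black bar); red points are called higher, blue points lower and grey points neither. The cell cycle list is at the top with a median of 0.62 and no lower member, and the fibroblast list at the bottom with a median of -2.82 and no higher member.

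The same genes were then looked up in 9 arrays that took no part in their choice, the iPSC clones and the early cultures. Of the 2669 higher genes, 1303 (48.8%) lay higher in all 5 iPSC clones than in all 4 early cultures and 494 (18.5%) lower, against 36.8% and 30.9% of all genes tested. Of the 2607 lower genes, 412 (15.8%) lay higher in all iPSC clones and 1649 (63.3%) lower. The median difference of iPSC clones minus early cultures was 0.29 for the higher genes, -1.01 for the lower genes and 0.05 for all genes tested. Genes with larger positive differences often lay above the iPSC clones as well: of the 514 genes higher by at least 1, 397 (77.2%) were above all 15 other arrays of the series, iPSC clones included, against 7.99% of all genes tested. Of the 1315 genes lower by at least 1, 371 (28.2%) were below all 15 others, against 6.36% of all genes tested. Since the clone's own arrays enter these last 2 counts and the rule, they only place the genes.

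Whole profiles placed the partial clone nearest the late cultures. Pearson correlations over genes above the floor on at least 1 array were between 0.872 and 0.924 for the 18 pairs of a clone and a late-culture array, between 0.825 and 0.865 for the 15 pairs with an iPSC clone and between 0.801 and 0.849 for the 12 pairs with an early culture. Genes are not independent replicates, and all pairs share the clone. Among themselves the 3 clone arrays reached between 0.990 and 0.996, and the late cultures between 0.962 and 0.993. Set against the cultures day by day, the median difference of the higher genes was 0.63, 0.62, 0.51, 0.48 and 0.57 on days 11, 15, 19, 22 and 26, and that of the lower genes -1.24, -1.23, -1.07, -0.86 and -1.07. Days 19 to 26 took part in the choice of these genes. By chromosome, median differences on the autosomes were between -0.047 (chromosome 3) and 0.079 (chromosome 19), and that of the X chromosome was -0.017.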

How the data were processed

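Expression was measured on 18 Affymetrix mouse arrays, and 9 of them were compared: 3 of the partial clone and 6 late cultures, grouped by the sample labels. The deposited log2 values, 1 per probe set and array, were made by the authors with RMA, per the submitters' processing notes. The sources used here give no version, settings or genome build. Every array had the same lowest value, 5.64 (the log2 of 50), and between 44.9% and 46.6% of its 40508 probe sets at it, so lower levels had been set to a floor before deposit. Between 12102 and 12499 genes per array lay above the floor. Precision is limited by the number of arrays.

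Gene names came from the platform annotation, with 31076 probe sets of 1 gene symbol, 636 of several and 8796 not listed and unnamed here. A RefSeq table (GRCm38.p6) held the Entrez identifiers of 30878 of them. Each of 17903 genes was represented by its brightest probe set on average, and 7906 genes had more than 1. Of the called and named genes, 51 had several probe sets. Among these, 35 had at least 1 other probe set that differed the same way in all 18 pairs. In 1 of them, Klf4, another probe set went the other way in all 18 pairs. limma 3.58.1 in R 4.3.3 compared both group means without covariates, 2-sided, with Benjamini-Hochberg adjustment over 13575 genes. The prior (SD 0.16, 3.1 degrees of freedom) came from 11025 genes above the floor on all 9 arrays, and the variance of any gene at the floor on some array was not allowed below the prior. Folds against a group at the floor on all its arrays are lower bounds set from the floor. The median SD within a group was 0.119 in the partial clone and 0.182 in the late cultures. The code was tested on simulated data: over 10 simulations of 13575 genes with 200 of them changed, it found 86.6% of changes of log2 1 and 98.4% of log2 2, with 4.93% of calls false. The simulated noise was independent, and only the limma call was scored. Far fewer genes changed there than were called here, so the simulations do not give the false share of the reported calls.

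The compared groups, the members and the 32 gene lists were chosen with earlier results of these data known. Genes were named by a rule: the 12 largest differences each way, the 3 called members of largest difference in each list, the sex-linked genes and a few reprogramming genes. Other list members given with a value were chosen after their values were seen. Listed genes without a named probe set were not used here. Lists have counts and medians and no test. Alternatives changed the prior, filter, scaling, probe set rule, covariates and arrays, and are given in the closing section. Tables and figures were made with Python 3.11.15, pandas 2.3.3 and matplotlib 3.10.9.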

Additional observations from a re-analysis of the deposited data

Results flagged for a closer look

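Among the 35 genes screened for a single array far from the others of its group (Dixon's test over the 6 late cultures), 5 genes had such an array. Chance alone gives about 1 in 20 groups. Pax7 was 5.95 in the wt culture of day 22, with the next culture at 5.70. Shisa6 was 6.89 and Isl1 5.81 in the same wt day 22 culture, with all other late cultures at the floor of 5.64. Tal1 was 6.64 in the wt culture of day 26, with the others at 5.64. Lum was 13.30 in the ko culture of day 22, with the next at 13.73. Where the other cultures sit at the floor, any value above it stands apart by this measure. None of the 5 values lay inside the range of the partial clone, which the rule excludes for called genes.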

How the results depend on the processing

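Of 112 called and named genes, 79 were called in the same direction under each of the 27 alternatives that tested them. The control siRNA array as the only array of the clone lost 32 of them, and it gave 2334 genes by limma, the same 2334 by both conditions, 1024 higher and 1310 lower. A minimum absolute difference of 1 gave 1872 genes by limma, 1838 by the pair rule and 1829 by both, 514 higher and 1315 lower. Leaving out 1 array at a time gave between 4478 and 6660 genes by limma, 5825 and 7017 by the pair rule and 4388 and 6225 by both, with 2070 to 3297 higher and 2264 to 2928 lower. The lone array of the clone was assumed to vary like the other group. Klf4 turned to -0.92 with the mean of its probe sets, which brings in the second probe set at -2.12. Klf4 lost its call in 15 alternatives, Sox1 in 12, Pou5f1 in 7, Lefty1 in 6 and Lmod1 in 5, and the cause was not tested. Leaving out the control siRNA array and using the Tcf3 siRNA arrays only are the same fit. This fit is counted as 2 of the 27 alternatives, also in these counts of lost calls. The control siRNA array alone moved a count by over 1.5 times in 15 of the 32 lists, and lowered it in each. The cell cycle list moved to 19 higher without day 22, 18 with wt cultures only, 15 with the Tcf3 siRNA arrays only and 14 with day means. The pluripotency list moved to 2 higher with ko cultures only and 9 with wt cultures only, and the respiratory list to 3 higher with ko cultures only. Without day 19, 8 interferon-induced genes were higher and 6 neuronal genes lower. Among genes above the floor on all 9 arrays alone, lower counts were 3 for adipocyte, 2 for keratinocyte and 2 for Hox genes, since fewer members were tested. No paired analysis was possible because the clone arrays and the culture arrays share no replicate number from the labels. The 3 clone arrays are of 1 clone under different siRNAs, each culture condition has 1 array, and levels under the floor were not measured.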

Other observations

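Gene families were also counted by symbol, after the values had been seen and with no test. Over all genes tested, 19.7% were higher and 19.2% lower, the shares to set beside every family count in this section. Of 26 chemokine ligands tested, 13 were lower in the partial clone and 2 higher (median difference -0.87, against 0.033 over all genes tested). Cxcl12, the ligand of Cxcr4, had 9.06, 8.75 and 8.72 in the clone, against 13.03, 13.80 and 14.00 as the lowest, median and highest late culture. Ccl11, which attracts eosinophils, was at the floor on all 3 clone arrays, against 10.44, 11.01 and 11.34 in the cultures, at least 39.6-fold lower. Cxcl1 (-4.82), Ccl7 (-4.58) and the alarmin Il33 (-5.72) were lower as well. Of 35 collagen chains, 23 were lower and 1 (Col4a4, 0.89) higher, and of 15 matrix metalloproteinases 8 were lower, led by Mmp3 (-5.78), and 1 (Mmp17, 0.47) higher. Of 6 insulin-like growth factor binding proteins, 5 were lower, led by Igfbp6 (-5.29) and Igfbp4 (-4.13).

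The Irx genes, homeobox genes of early patterning, went the other way in part, with 3 of 5 higher and 2 lower (median 1.30). Irx5 had 11.14, 10.85 and 11.02 in the clone, against 7.81, 8.20 and 9.19 in the cultures, and between 5.64 and 5.89 in iPSC clones. Irx3 had 11.58, 11.43 and 11.61 in the clone, against 9.18, 9.43 and 11.08 in the cultures. Proteasome subunits were higher for 11 of 38 and lower for 1, the germ cell subunit Psma8 (-1.88), with a median of 0.16. Cytosolic ribosomal protein genes had a median of 0.02, with 3 of 39 higher and 5 lower.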
